A study of Homo sapiens with 9 samples.

Results

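LSD1 and 8 proteins that form or accompany the CoREST complex were followed through 9 RNA sequencing libraries of NB4 cells, a human acute promyelocytic leukaemia line. The 9 genes were taken by name as the subunits of the complex: AOF2, the symbol the deposited tables use for KDM1A, the gene of LSD1, and RCOR1, RCOR2, RCOR3, HDAC1, HDAC2, PHF21A, HMG20B and ZMYM2. Both deposited tables list all 9, among 36119 loci for the knockout and 35856 for the treatments. The knockout table holds 2 libraries labelled LSD1 KO and 2 labelled WT, all untreated. In the deposited table both KO columns carry the name KO2. The labels do not say how the knockout was made, which stretch of the gene it removed, or whether the 2 KO libraries came from separate clones or cultures, so a p-value measures only the spread between these libraries, which may be technical. The treatment table holds 1 library each of cells kept for 24 h with retinoic acid (RA) at 0.01 uM, RA at 1 uM, MC_2580 together with RA at 0.01 uM, MC_2580 alone, and DMSO, the vehicle. MC_2580 is an LSD1 inhibitor per the series' design text, and its dose is not given.

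LSD1 is a flavin-dependent demethylase that removes mono- and dimethyl marks from lysine 4 of histone H3, a mark of active promoters and enhancers. It works inside a co-repressor assembly in which a CoREST scaffold (RCOR1, RCOR2 or RCOR3) joins it to the histone deacetylases HDAC1 and HDAC2. PHF21A reads the unmethylated histone tail, HMG20B carries a DNA-binding HMG box, and ZMYM2 is a zinc finger protein that binds the complex. In myeloid cells the complex is brought to DNA by the transcription factors GFI1 and GFI1B, and it holds back genes of later maturation. NB4 cells carry the PML-RARA fusion, and RA drives them towards granulocytes.

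Values are FPKM, fragments mapped to a gene, scaled to its length and to the size of the library. How that size was set for each library is not given. The number of reads per library was not given, and from the spacing of the lowest values 1 FPKM stood for 1.04 times (KO 1), 1.35 times (KO 2) and 1.65 times (WT 2) as many reads as in WT 1, and in the treatment set for 0.735 to 0.895 times as many as in DMSO. Between 11974 and 13365 loci per library reached 1 FPKM. Of 6 promyelocyte markers, 5 were at or above 1 FPKM in every library and MPO lay between 2454 and 6518 FPKM, whereas ELANE (listed as ELA2) lay between 0 and 0.242 FPKM. CTSG had 9.94 and 27.2 FPKM in KO, against 47.9 and 110.9 FPKM in WT (limma unadjusted p = 0.0387, adjusted p = 0.654). Of 7 lymphoid markers 4 reached 1 FPKM in both KO libraries, 3 in both WT libraries and 2 in each treatment library, and MS4A1 was at 0 in all. They summed to 238 and 198 FPKM in KO, against 118 and 71.9 FPKM in WT, and to 111 to 131 FPKM in the 3 RA libraries and 72.6 FPKM with MC_2580, against 76.6 FPKM with DMSO. With RA the lymphoid markers differed in direction: CD79A had 49.95 to 73.4 FPKM, against 1.62 FPKM with DMSO, while CD3D had 56.1 to 60.8 FPKM, against 74.4 FPKM. CD2 was listed at 0 with RA and had only 0.0606 FPKM with DMSO, too low to give a direction. Of 5 stromal and epithelial markers EPCAM made up most, with 1.73 and 0.726 FPKM in KO, against 10.96 and 12.9 FPKM in WT. In the RA 1 uM library COL1A1 had 1.18 FPKM and COL1A2 0.355 FPKM, against 0.0061 and 0 FPKM with DMSO. The part of these markers in the members' values was not tested. The erythroid markers summed to under 1 FPKM in each library. Of 3 megakaryocyte markers only ITGA2B reached 1 FPKM, with 7.08 and 3.28 FPKM in KO, against 15.1 and 4.10 FPKM in WT. In bulk RNA, fewer cells of a type and less RNA per cell cannot be told apart.

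AOF2 and HDAC1 stood apart from DMSO in opposite directions in the RA libraries, and the sequences just upstream of their starts are shown for that reason. RCOR2, for which no window was matched, and ZMYM2 also lay below DMSO there and are not shown. Among 9956 protein-coding genes 59.8% had the RA libraries apart from MC_2580 and DMSO. A link between these sequences and RA was not tested. They are the 250 bases before the start in RefSeq (GRCh38.p14, plus strand), chr1:23019218-23019467 for KDM1A and chr1:32291833-32292082 for HDAC1. Capitals mark GGGCGG, the GC box bound by SP1 family factors, and CCAAT, the CCAAT box, on either strand.
KDM1A: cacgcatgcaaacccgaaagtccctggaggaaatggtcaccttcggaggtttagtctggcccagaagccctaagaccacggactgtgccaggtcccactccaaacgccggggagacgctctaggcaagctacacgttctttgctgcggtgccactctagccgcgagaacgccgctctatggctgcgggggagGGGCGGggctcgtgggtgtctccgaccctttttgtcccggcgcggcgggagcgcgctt
HDAC1: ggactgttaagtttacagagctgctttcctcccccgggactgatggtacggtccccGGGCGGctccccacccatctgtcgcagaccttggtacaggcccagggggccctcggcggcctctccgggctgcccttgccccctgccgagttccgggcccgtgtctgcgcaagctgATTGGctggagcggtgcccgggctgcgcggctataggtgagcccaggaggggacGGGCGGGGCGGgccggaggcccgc
The KDM1A stretch held 1 GC box, 58 bases before the start, and no CCAAT box, with a GC content of 64.0%. That of HDAC1 held 3 GC boxes, the nearest 19 bases before the start and overlapping its neighbour, and 1 CCAAT box, with a GC content of 71.6%. RefSeq windows were matched for 8 of the 9 members, 13 windows in all. GGGCGG was present in 9 of these 13 windows and in 42.6% of all 35116 windows, and CCAAT in 5 of 13 and in 32.0% of all. AGGTCA, the half-site bound by RA receptors, was searched on both strands and was found in 0 of the 13 windows and in 12.1% of all windows. Its variant AGTTCA was found in 1 of the 13, upstream of ZMYM2, and in 8.8% of all.

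AOF2, at chr1:23218533-23282771 (hg18, as the deposited table gives it), checks the knockout labels. Its level was 13.96 and 16.81 FPKM in KO and 49.8 and 66.6 FPKM in WT. Both KO libraries lay below both WT libraries, and the KO mean of 15.4 ± 2.013 FPKM was 26.4% of the WT mean of 58.2 ± 11.9 FPKM (SD, n = 2 each). On log2(FPKM + 1) the difference was -1.84 with a standard error of 0.23 (limma, unadjusted p = 0.00152). After Benjamini-Hochberg adjustment over all 13158 loci tested, limma's p was 0.159, so AOF2 missed the threshold of 0.05. Its adjusted p ranged from 0.0593 to 0.650 over the alternatives tried. In the authors' deposited table, which tests 1 library against 1, AOF2 was called significant for KO 1 against WT 1 (q = 0.0113), and the test of KO 2 against WT 2 has a failed status. The FPKM values listed for KO 2 and WT 2 were kept here. KO 1 and WT 1 alone, an alternative chosen after seeing the data, differ by -1.76 on the same scale, with no test.

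AOF2 was also lower in each of the libraries with RA. It stood at 52.0 FPKM with RA 0.01 uM, 51.0 FPKM with RA 1 uM and 50.8 FPKM with the combination, against 66.9 FPKM with MC_2580 and 69.9 FPKM with DMSO. The 3 RA libraries lay close together at both doses, and the MC_2580 library lay beside DMSO. The log2 differences from DMSO were -0.42, -0.45 and -0.45 in the 3 RA libraries and -0.06 with MC_2580. With 1 library per treatment these differences have no replicate check. In the authors' deposited table, which compares single libraries, the unadjusted p against DMSO was 0.182, 0.149 and 0.129 in the 3 RA libraries and 0.837 with MC_2580, and none was called significant. The largest difference between 2 libraries of the same group in the knockout set was 0.41 for AOF2, just under the size of the 3 RA values. A distance from DMSO at least as large was found for 26.8% of protein-coding genes with RA 0.01 uM, 28.6% with RA 1 uM and 38.0% with the combination, so the shift in AOF2 is of a size common among genes. Same-group pairs in the knockout set were past 1.5-fold at 24.4% (KO) and 25.4% (WT) of all loci. MC_2580 against DMSO was past it at 7.09%, and RA 1 uM against RA 0.01 uM at 6.53%. A difference within the same-group difference, here or below, may therefore still exceed the spread of the treatment set, which has no replicates.

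**Figure D1:**
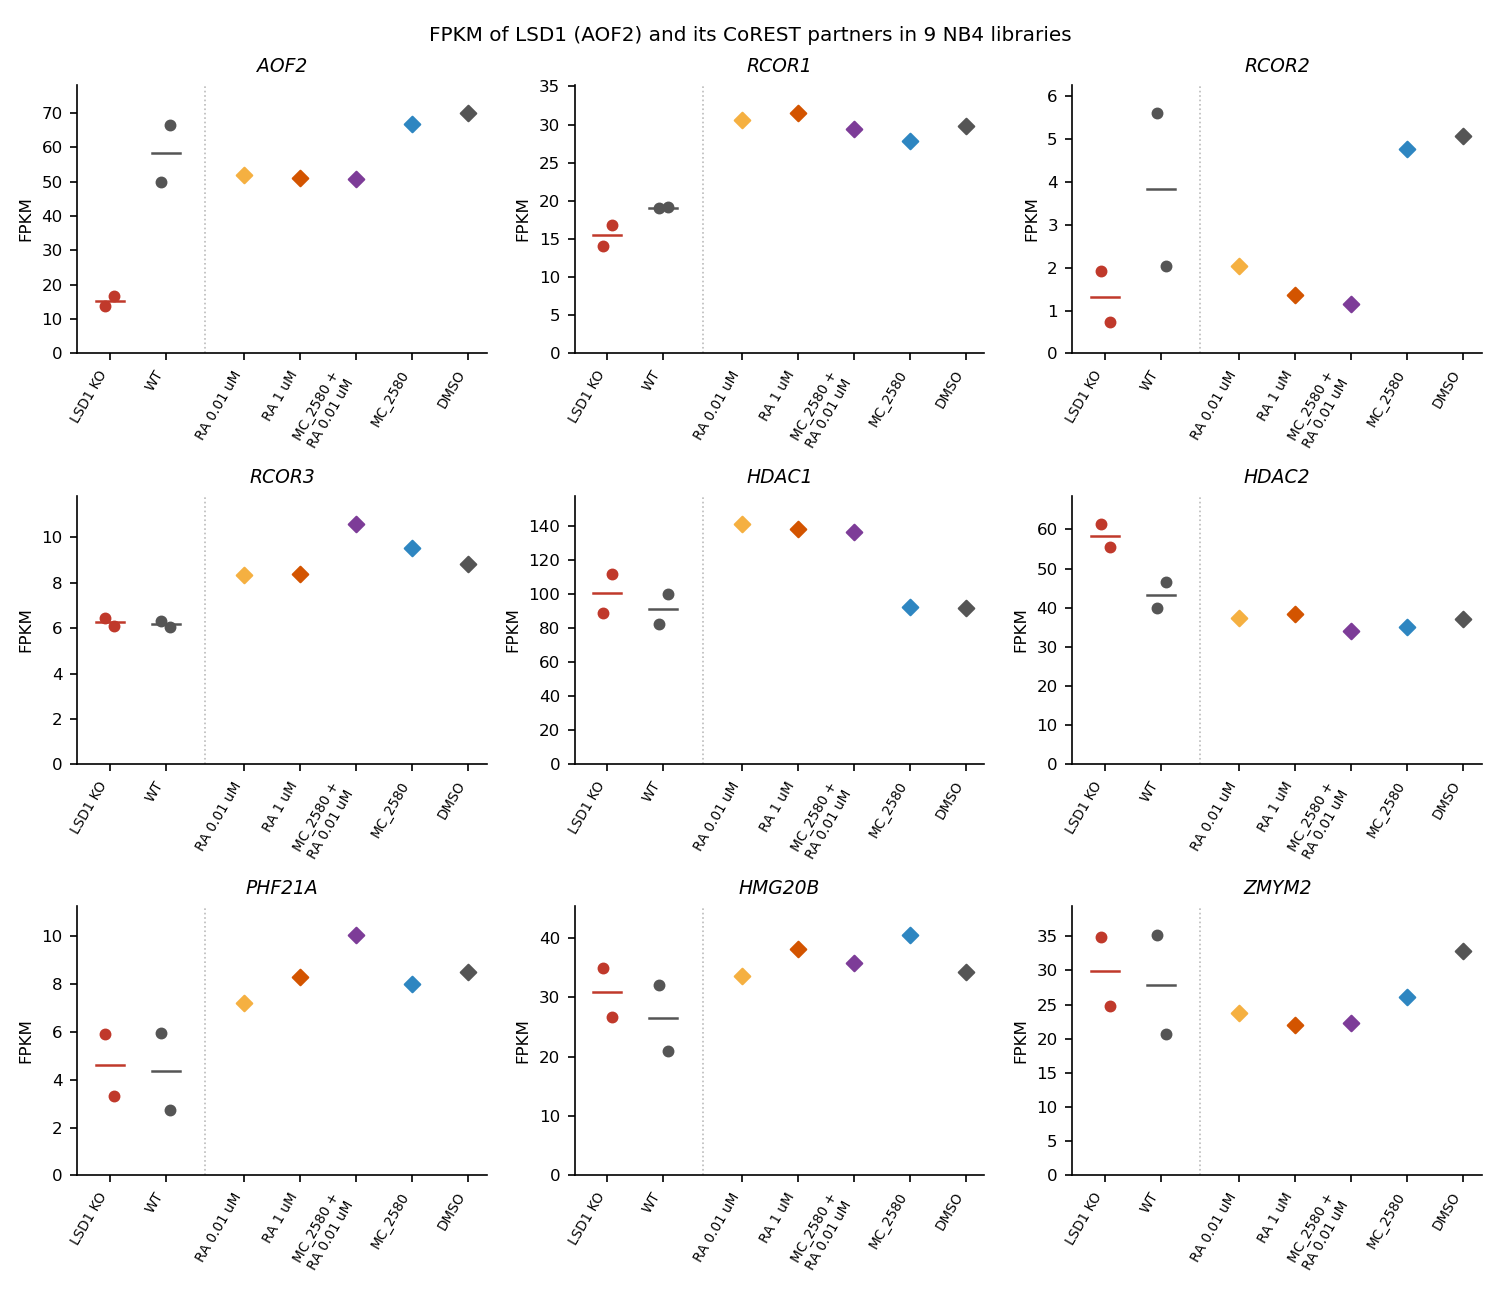
FPKM (y axis, from 0) of the 9 genes in each library; circles are the libraries of the knockout set with a line at the group mean (n = 2 each), diamonds the 5 single treatment libraries, and a dotted line separates the 2 sets. AOF2 stands at 13.96 and 16.81 FPKM in KO against 49.8 and 66.6 FPKM in WT, RCOR2 is low and HDAC1 high in the 3 libraries with RA, and RCOR1 and HDAC2 stay near DMSO there.

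By FPKM the CoREST scaffold RNA was mostly RCOR1, at chr14:102128986-102266665 (hg18; a Y_RNA entry shares the locus). RCOR1 had 14.1 and 16.9 FPKM in KO, against 19.0 and 19.2 FPKM in WT. The groups did not overlap, and the log2 difference was -0.29 (standard error 0.17, limma adjusted p = 0.830). In the treatment set RCOR1 was the steadiest scaffold, with 30.6 FPKM with RA 0.01 uM, 31.5 FPKM with RA 1 uM, 29.4 FPKM with the combination and 27.8 FPKM with MC_2580, against 29.8 FPKM with DMSO. All 4 differences from DMSO lay between -0.09 and 0.08 on the log2 scale and within the same-group difference of 0.25.

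RCOR2, at chr11:63435303-63440892 (hg18), was the scaffold that differed most between libraries and the least expressed of the 9 genes. It had 2.04 FPKM with RA 0.01 uM, 1.36 FPKM with RA 1 uM and 1.15 FPKM with the combination, against 4.77 FPKM with MC_2580 and 5.05 FPKM with DMSO. The 3 RA libraries lay together below the other 2. The ratios to DMSO were 0.404, 0.270 and 0.228 in the RA libraries and 0.945 with MC_2580. On log2(FPKM + 1), which understates the change of a gene this low, the differences were -0.99, -1.36, -1.49 and -0.07. Differences at least as large were found for 7.78%, 5.43% and 6.5% of protein-coding genes in the 3 RA comparisons. The combination differed from MC_2580 alone by -1.43 and from RA 0.01 uM alone by -0.50 on the same scale.

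The spread of RCOR2 between libraries of 1 group was wide. It had 1.93 and 0.723 FPKM in KO, against 5.59 and 2.05 FPKM in WT, so that the lower WT library stood beside the higher KO library. Replicates differed by 0.77 in KO and 1.11 in WT on the log2 scale. The difference between KO and WT was -0.996 (standard error 0.52, limma adjusted p = 0.830). The RA differences for 1 uM and for the combination exceeded the same-group difference, and that for 0.01 uM did not. In the authors' deposited table RCOR2 had an unadjusted p under 0.05 in 4 of 10 pairs of treatment libraries, with p = 0.00212 between the combination and DMSO and p = 0.00572 between RA 1 uM and DMSO, and was called significant in 0 of 10.

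RCOR3, at chr1:209499526-209556200 (hg18), is the other scaffold. It had 6.45 and 6.09 FPKM in KO, against 6.31 and 6.03 FPKM in WT, a log2 difference of 0.02 (standard error 0.15, limma adjusted p = 0.997). In the treatment set it had 8.35 FPKM with RA 0.01 uM, 8.36 FPKM with RA 1 uM, 10.6 FPKM with the combination and 9.52 FPKM with MC_2580, against 8.82 FPKM with DMSO. The combination was the highest of the 9 libraries, 0.24 above DMSO and 0.31 above RA 0.01 uM on the log2 scale. Both exceeded the same-group difference of 0.0696, but so small a difference was also exceeded against DMSO by MC_2580 (0.0998) and RA 0.01 uM (-0.0706). Differences at least as large as those of the combination were found for 62.7% and 32.8% of protein-coding genes. In the authors' deposited table their unadjusted p was 0.506 and 0.375, and neither was called significant. The groups of the knockout set overlapped for RCOR3.

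Since FPKM is a level per length, the RNA of the 3 scaffolds can be set against each other within a library. Protein was not measured, so the make-up of the complex itself is not given. RCOR1 made up 61.5% to 76.4% of their summed FPKM over the 9 libraries. The share of RCOR2 was 8.59% and 3.05% in KO, against 18.1% and 7.51% in WT. It was 4.99% with RA 0.01 uM, 3.31% with RA 1 uM and 2.8% with the combination, against 11.3% with MC_2580 and 11.6% with DMSO. The sum itself was 40.95, 41.2 and 41.1 FPKM in the 3 RA libraries and 42.1 FPKM with MC_2580, against 43.6 FPKM with DMSO. Within the treatment set the sum thus differed far less than the share of RCOR2, which is a small part of it. In the knockout set the sum was 22.4 and 23.7 FPKM in KO, against 30.9 and 27.2 FPKM in WT. The FPKM of AOF2 divided by this sum stood at 0.622 and 0.709 in KO, against 1.61 and 2.44 in WT.

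HDAC1, at chr1:32530295-32571811 (hg18), encodes a deacetylase of the complex that also serves NuRD and SIN3 complexes. It had the highest FPKM of the 9 genes in every library. It stood at 141 FPKM with RA 0.01 uM, 138 FPKM with RA 1 uM and 136 FPKM with the combination, against 92.6 FPKM with MC_2580 and 91.7 FPKM with DMSO. The 3 RA libraries lay together above the other 2, at 1.54, 1.51 and 1.49 times DMSO. The log2 differences of 0.61, 0.59 and 0.57 exceeded the same-group difference of 0.33, and that with MC_2580 was 0.01. Differences at least as large were found for 16.4%, 20.1% and 29.0% of protein-coding genes. HDAC1 was not called in any pair of treatment libraries in the authors' deposited table, where its lowest p was 0.166. In the knockout set HDAC1 had 89.0 and 112 FPKM in KO, against 82.3 and 100.1 FPKM in WT, with overlapping groups and a log2 difference of 0.14 (standard error 0.23, limma adjusted p = 0.947).

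HDAC2, at chr6:114364022-114399047 (hg18), is the paralog of HDAC1 in the same complexes. It had 61.3 and 55.5 FPKM in KO, against 40.1 and 46.7 FPKM in WT. Both KO libraries lay above both WT libraries, with means of 58.4 ± 4.14 and 43.4 ± 4.66 FPKM (SD, n = 2 each) and a log2 difference of 0.42 (standard error 0.18, limma unadjusted p = 0.0810, adjusted p = 0.775). It was the only member with the KO libraries wholly above. In the treatment set HDAC2 had 37.3 FPKM with RA 0.01 uM, 38.3 FPKM with RA 1 uM, 34.1 FPKM with the combination and 35.0 FPKM with MC_2580, against 37.2 FPKM with DMSO, all within the same-group difference of 0.21 on the log2 scale. The ratio of HDAC1 to HDAC2 was 3.78 with RA 0.01 uM, 3.61 with RA 1 uM and 4.0 with the combination, against 2.64 with MC_2580 and 2.46 with DMSO. The ratio was 1.45 and 2.02 in KO, against 2.05 and 2.15 in WT.

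**Figure D2:**
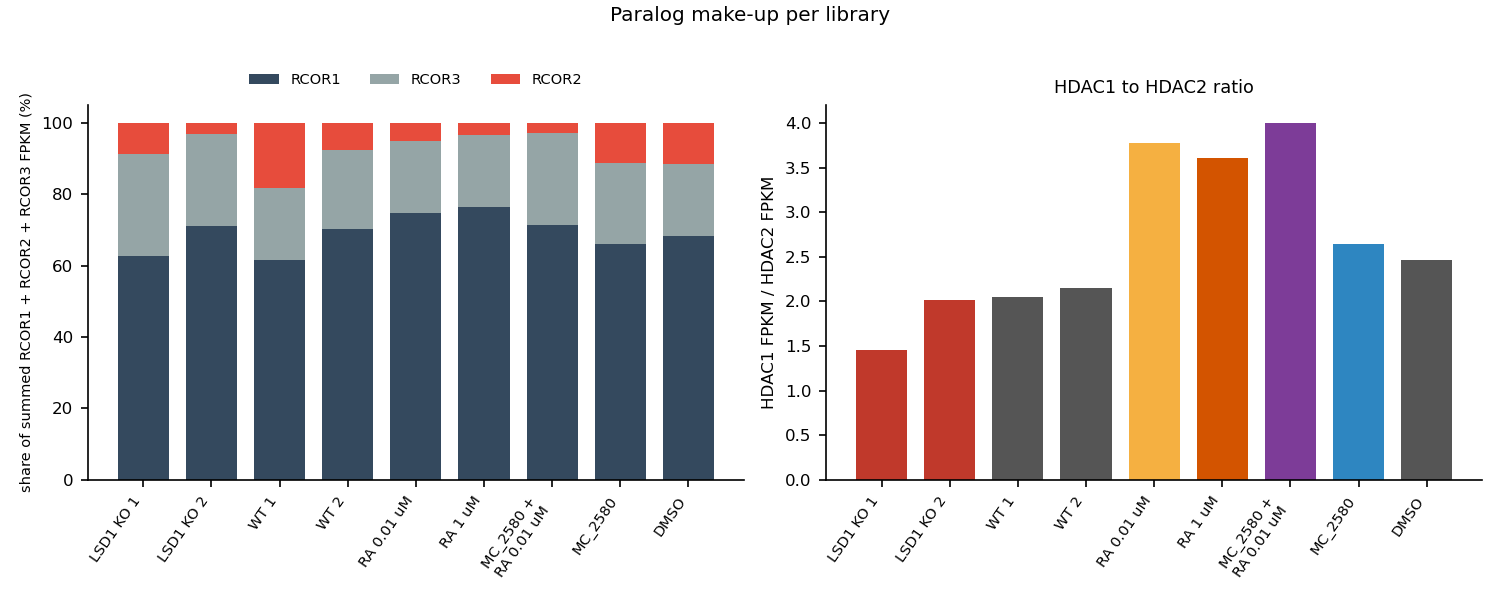
Left, share (%) of RCOR1, RCOR3 and RCOR2 in their summed FPKM per library; right, HDAC1 FPKM divided by HDAC2 FPKM per library (bars from 0). RCOR2 takes 2.8% to 4.99% in the 3 RA libraries against 11.3% with MC_2580 and 11.6% with DMSO, and the HDAC ratio lies between 3.61 and 4.0 in the RA libraries against 2.64 and 2.46.

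The 3 remaining members had wide same-group differences in the knockout set. PHF21A, at chr11:45907447-46099561 (hg18), had 5.90 and 3.34 FPKM in KO, against 5.97 and 2.74 FPKM in WT. With treatment it had 7.24 FPKM with RA 0.01 uM, 8.31 FPKM with RA 1 uM, 10.0 FPKM with the combination and 7.99 FPKM with MC_2580, against 8.53 FPKM with DMSO. The combination was the highest of the 9 libraries, as for RCOR3, but the difference of 0.21 from DMSO was well within the same-group difference of 0.90.

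HMG20B had 35.0 and 26.8 FPKM in KO, against 32.1 and 21.0 FPKM in WT. It had 33.5 FPKM with RA 0.01 uM, 38.2 FPKM with RA 1 uM, 35.9 FPKM with the combination and 40.5 FPKM with MC_2580, against 34.3 FPKM with DMSO. The table places it in a merged locus of 281396 bases, chr19:3441824-3723219 (hg18), under a joint name with 12 other genes, so its values cannot be assigned to HMG20B alone.

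ZMYM2, at chr13:19430810-19561253 (hg18; RP11-110K18.2 shares the locus), had 34.9 and 24.8 FPKM in KO, against 35.1 and 20.7 FPKM in WT. It had 23.8 FPKM with RA 0.01 uM, 21.97 FPKM with RA 1 uM, 22.4 FPKM with the combination and 26.1 FPKM with MC_2580, against 32.8 FPKM with DMSO. All 4 treated libraries lay below DMSO, with log2 differences of -0.44, -0.56, -0.53 and -0.32. All 4 were smaller in size than the 0.74 between the WT libraries, which may be wider than the spread of the treatment set. The log2 differences between KO and WT were 0.10 for PHF21A, 0.23 for HMG20B and 0.12 for ZMYM2 (limma adjusted p = 0.991, 0.926 and 0.979), and the groups overlapped for each.

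In the knockout comparison, 0 of the 9 members passed limma's adjusted threshold, where 15 of all 13158 loci did (0.114%, 8 higher and 7 lower in KO). At an unadjusted p under 0.05, 1 member (AOF2) and 7.17% of all loci were counted. AOF2, RCOR1 and RCOR2 had both KO libraries below both WT libraries and HDAC2 had both above, 4 of 9 members, where 34.0% of all loci did not overlap in either direction. The median log2 difference was 0.10 over the members and -0.02 over all loci. Of the 9 members 5 had the replicate labelled 1 above that labelled 2 in both genotypes and 3 had it below in both, with HDAC2 the exception. Some of these differences were slight, such as -0.012 for RCOR1 in WT on the log2 scale. The share of all loci with a shared order was not counted, so the count cannot be read as a trait of the members.

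Against DMSO, and on log2(FPKM + 1), 0 members were past 2-fold with RA 0.01 uM (9.41% of all loci), where RCOR2 lay just inside at -0.99 although its plain FPKM ratio was 0.404, 1 with RA 1 uM (10.7%), 1 with the combination (13.7%) and 0 with MC_2580 (3.95%). The member past 2-fold was RCOR2 each time, and it was lower in the treated library. Between the combination and RA 0.01 uM 0 members were past 2-fold (6.97%), and between the combination and MC_2580 it was again RCOR2 alone (12.3%). RA 1 uM and RA 0.01 uM differed past 2-fold in 0 members (3.61%), and no member differed between these doses by more than its same-group difference. The libraries with RA did not overlap MC_2580 and DMSO in 4 members: AOF2, RCOR2 and ZMYM2 lay below and HDAC1 above. Among 9956 protein-coding genes 59.8% did not overlap, so a count of 4 in 9 is not above the background. The comparisons with DMSO share 1 control library, so a low or high value in it moves all of them together. The summed promyelocyte markers stood at 3611, 3569 and 3461 FPKM in the 3 RA libraries and 6933 FPKM with MC_2580, against 5663 FPKM with DMSO. MPO made up most of each sum, with 2678, 2454 and 2873 FPKM in the RA libraries, against 5301 FPKM with DMSO. CTSG was lower as well, with 10.3, 7.01 and 4.65 FPKM in the RA libraries, against 58.6 FPKM with DMSO. PRTN3 lay the other way, with 762, 966 and 454 FPKM in the RA libraries, against 178 FPKM with DMSO. So did CD33, with 42.7 to 46.8 FPKM against 31.97 FPKM. AZU1 lay on both sides of DMSO, with 117, 98.1 and 82.7 FPKM, against 93.6 FPKM. The list's median log2 difference was 0.32, 0.07 and -0.18 in the 3 RA comparisons. The part of these markers in the members' values was not tested.

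**Figure D3:**
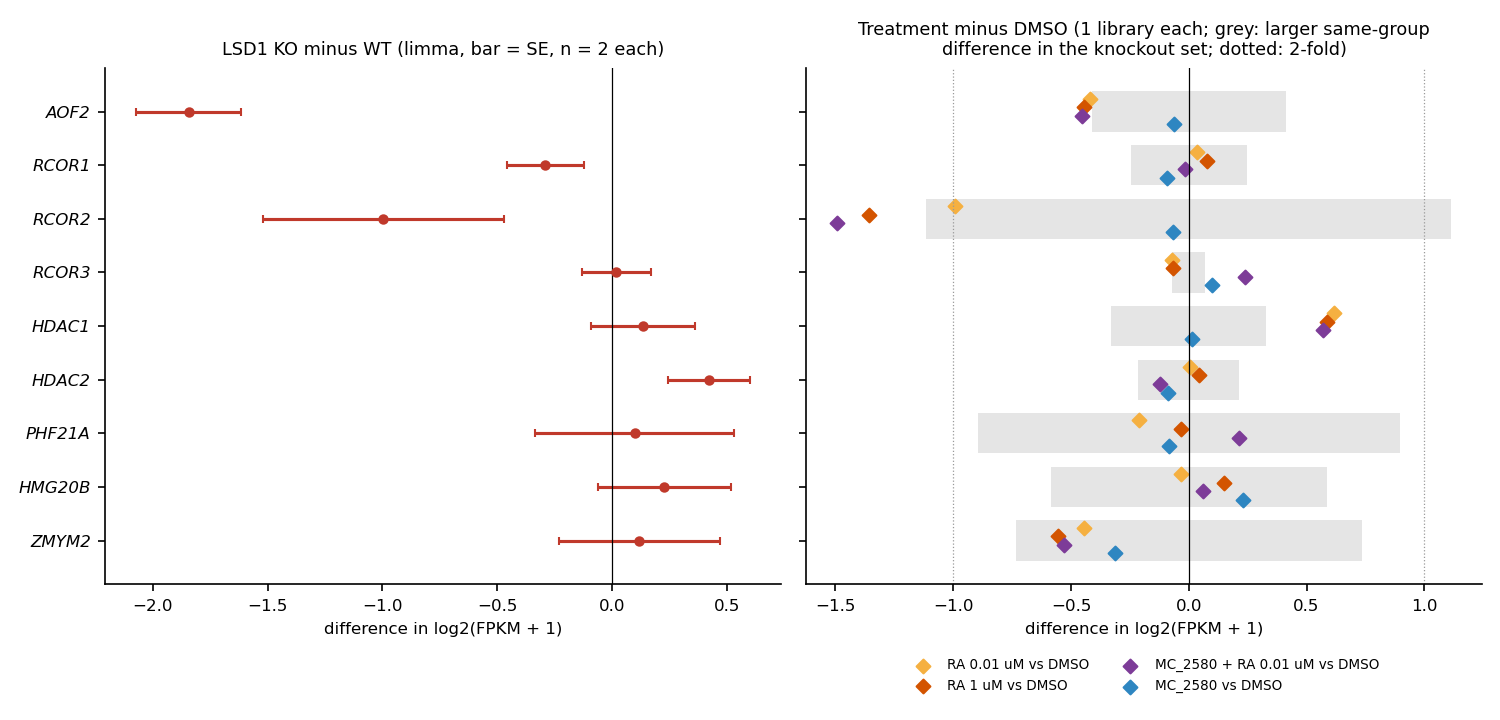
Differences in log2(FPKM + 1) of the 9 genes: left, LSD1 KO minus WT with the limma standard error (n = 2 each); right, each treatment minus DMSO (1 library each), with a grey bar spanning the larger same-group difference in the knockout set either side of 0 and dotted lines at 2-fold. AOF2 stands at -1.84 on the left, and on the right RCOR2 with RA 1 uM and the combination is alone beyond 2-fold, while HDAC1 lies at 0.57 to 0.61 in the 3 RA libraries.

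By rank among protein-coding genes with 1 locus and at least 1 FPKM, the members spanned nearly the whole range. HDAC1 had a median percentile of 91.3 over the 9 libraries, AOF2 82.3, HDAC2 75.4, HMG20B 74.3, RCOR1 67.8 and ZMYM2 65.9. RCOR3 had 30.9 and PHF21A 28.5, and RCOR2, at 7.45 over the 8 libraries where it reached 1 FPKM, was near the bottom. The range over libraries of AOF2 overlapped those of HDAC2, HMG20B, RCOR1 and ZMYM2, and these overlapped each other except that HDAC2 lay wholly above RCOR1. PHF21A overlapped both RCOR3 and RCOR2. By these pooled ranges such members cannot be put in order, but some kept their order within libraries. By FPKM, RCOR3 stood above PHF21A, PHF21A above RCOR2, and HDAC2 above ZMYM2 in all 9 libraries. AOF2 stood above HDAC2, HMG20B, RCOR1 and ZMYM2 in the WT and treatment libraries and below them in KO. HDAC1 lay wholly above the other 8, and RCOR3, PHF21A and RCOR2 lay wholly below the other 6. AOF2 had the widest range, with the 52.6 percentile as its lowest and the 87.5 percentile as its highest.

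The genes whose pattern over the 9 libraries was most like a member's were sought among 7132 or 7133 protein-coding genes, by the root mean square difference of log2(FPKM + 1) after each table was centred. For AOF2 they were RET (0.17), ALDH2 (0.26) and NRSN2 (0.27). RET, a receptor tyrosine kinase, had 6.18 and 6.77 FPKM in KO, against 20.6 and 21.3 FPKM in WT. For RCOR2 they were SOHLH2 (0.21), MICALL2 (0.22) and CTHRC1 (0.24). MICALL2 had 4.48, 3.02 and 2.55 FPKM with RA 0.01 uM, RA 1 uM and the combination and 10.7 FPKM with MC_2580, against 10.1 FPKM with DMSO. For HDAC1 they were BMAL2, CAP1 and MGAT5 (0.07, 0.08 and 0.08), and for RCOR1, which varied little, COQ7, NSMCE3 and SDHC (0.04 each). Among the members the nearest to AOF2 was RCOR1 at 0.56. The closest pair of members was PHF21A and HMG20B at 0.16, although the values of HMG20B cannot be assigned to it alone. The best match among 7132 or 7133 genes tends to be closer than the best among so few members. The distances between members therefore cannot be weighed against those of the matched genes.

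Another 58 genes in 7 lists were described beside the members: other proteins found with the complex, factors that recruit LSD1, the NuRD, SIN3 and NCoR/SMRT co-repressors, other H3K4 demethylases and the H3K4 methyltransferases. In KO against WT, 51 of them were tested, 0 passed limma's adjusted threshold and 6 had an unadjusted p under 0.05, beside the 0.114% and 7.17% of all loci given above. GFI1, a repressor that binds LSD1 directly and the highest expressed of the recruiting factors, had 98.4 and 98.2 FPKM in KO, against 43.7 and 46.5 FPKM in WT (log2 difference 1.11, standard error 0.16, limma adjusted p = 0.221). KDM1B, the second LSD family demethylase, listed as AOF1, had 5.49 and 5.29 FPKM in KO, against 9.70 and 8.75 FPKM in WT (log2 difference -0.68, limma adjusted p = 0.453). The other 4 with an unadjusted p under 0.05 were SNAI2, SAP30, ZNF217 and TBL1X, which like KDM1B are given for this comparison after their values were seen. SNAI2, a recruiting factor, had 2.22 and 3.55 FPKM in KO and is listed at 0 in both WT libraries. SAP30 had 41.7 and 40.6 FPKM in KO, against 25.7 and 23.4 FPKM in WT. ZNF217 had 17.8 and 17.3 FPKM in KO, against 11.3 and 9.88 FPKM in WT. TBL1X had 7.39 and 8.51 FPKM in KO, against 11.4 and 12.2 FPKM in WT. The limma adjusted p of these 4 lay between 0.262 and 0.628. GFI1B had 7.16 and 6.07 FPKM in KO, against 4.52 and 1.39 FPKM in WT (log2 difference 1.07, standard error 0.47, limma adjusted p = 0.785).

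Among proteins found with the complex, GSE1 (listed as KIAA0182) had 71.4 FPKM with RA 0.01 uM, 43.1 FPKM with RA 1 uM, 64.8 FPKM with the combination and 14.8 FPKM with MC_2580, against 12.5 FPKM with DMSO. The 3 RA libraries were far above the other 2, by 2.43, 1.71 and 2.29 on the log2 scale. In KO it had 11.3 and 12.03 FPKM, against 10.4 and 11.2 FPKM in WT. ZNF217, a zinc finger protein of the complex, passed 2-fold with the combination alone, at 31.9 FPKM against 14.3 FPKM with DMSO. CTBP1, a co-repressor and the highest expressed of this list, lay between 59.4 and 111 FPKM in the 9 libraries.

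Of the 8 recruiting factors 4 reached 1 FPKM in the treatment comparisons. GFI1B had 22.9 FPKM with RA 0.01 uM, 8.83 FPKM with RA 1 uM, 95.4 FPKM with the combination and 6.71 FPKM with MC_2580, against 1.87 FPKM with DMSO. GFI1 had 41.4, 55.3, 167 and 106 FPKM in the same treated libraries, against 67.1 FPKM with DMSO, and passed 2-fold with the combination alone (log2 difference 1.3). Both were highest in the combination among the treatment libraries. REST and ZEB1, the other factors compared, were not past 2-fold in any comparison with DMSO, with levels of 7.10 to 9.10 FPKM and 6.40 to 7.77 FPKM in the 5 libraries.

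In the other co-repressors TBL1X, a subunit of NCoR/SMRT, had 6.15 FPKM with RA 0.01 uM, 4.72 FPKM with RA 1 uM, 8.31 FPKM with the combination and 18.3 FPKM with MC_2580, against 18.4 FPKM with DMSO. Its log2 differences from DMSO were -1.44, -1.76, -1.06 and -0.01. SAP30, a subunit of SIN3, had 7.80, 7.51 and 7.17 FPKM in the 3 RA libraries and 20.2 FPKM with MC_2580, against 15.8 FPKM with DMSO, and ING2 of the same complex had 8.62 FPKM with the combination, against 19.0 FPKM with DMSO. Of the 11 NuRD genes, the 4 other H3K4 demethylases and the 9 H3K4 methyltransferase genes that were matched, 0 were past 2-fold in any comparison with DMSO. The highest expressed of these lists were RBBP7 (NuRD), SAP18 (SIN3), HDAC3 (NCoR/SMRT), KDM5C and DPY30, at means of 146, 88.0, 50.9, 28.7 and 95.8 FPKM over the 9 libraries.

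Over all 7 lists, 3 of 50 genes were past 2-fold with RA 0.01 uM, 3 of 50 with RA 1 uM, 7 of 49 with the combination and 1 of 49 with MC_2580. The shares of all loci in the same comparisons were those given for the members. The lists lay below them with RA 0.01 uM, RA 1 uM and MC_2580 and beside it with the combination. Among protein-coding genes with 1 locus, a closer background, the shares were 7.67%, 9.25%, 12.8% and 0.753% in the order above. Against these the lists lay below with both doses of RA alone and beside it with the combination. With MC_2580 the 1 gene, GFI1B, put the lists above the share.

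**Figure D4:**
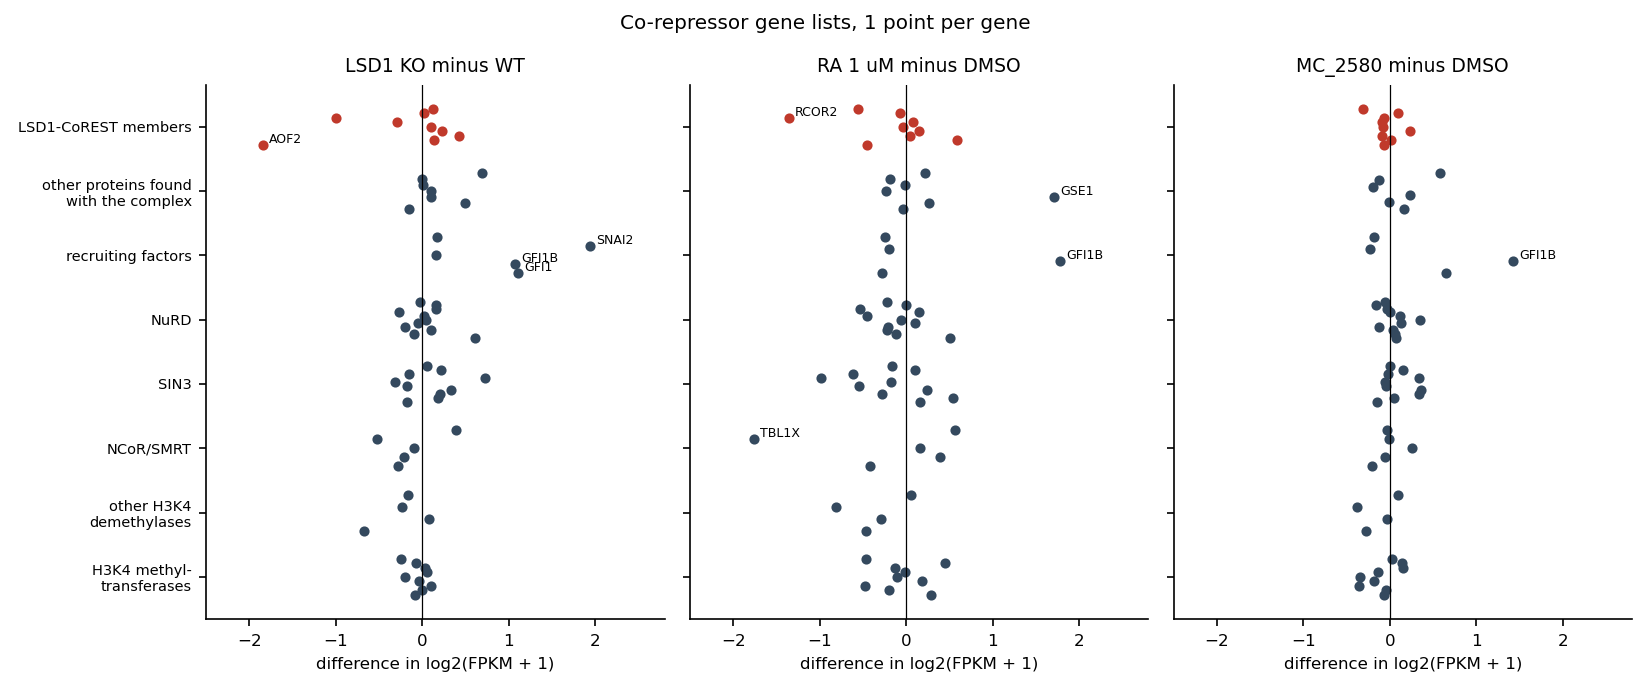
Differences in log2(FPKM + 1), 1 point per gene, for the 9 members (red) and the 7 other lists (blue) in LSD1 KO minus WT, RA 1 uM minus DMSO and MC_2580 minus DMSO; genes at 2-fold or more are named. RCOR2 is the member past 2-fold with RA 1 uM, GSE1, GFI1B and TBL1X the list genes, and with MC_2580 only GFI1B is past it.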

How the data were processed

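RNA from 9 NB4 samples was sequenced after TruSeq V2 library preparation, per the labels' protocols. Per the file headers, both deposited tables hold FPKM values in the layout of Cuffdiff. Build hg18 and the programs TopHat2 2.0.10, TopHat 1.3.1, Cufflinks and Cuffdiff, with CASAVA 1.8, come from the submitters' processing notes, which give no role for each, and the scaling between libraries is not given in the sources used here. Per the file headers, the authors also deposited a p-value and a q-value for tests of 1 library against another; they were used only where the authors' table is named.

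In the knockout table every value is raised by 0.001 FPKM, which was taken off. In the treatment table all values of tests with a failed status are listed at 0 and were treated as missing, which left 1039 loci without at least 1 library. The knockout table has 7 loci with a failed status, AOF2 among them, and their listed values were kept. Where a treatment library's value differed between pairs (202 values), the value above 0 was used.

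For KO against WT, log2(FPKM + 1) was fitted with limma-trend (limma 3.58.1, R 4.3.3) over 13158 loci whose mean reached 1 FPKM in either genotype. P-values were adjusted over all of them (Benjamini-Hochberg, threshold 0.05). Treatments, with 1 library each, were compared by size alone, at 2-fold on log2(FPKM + 1), for loci of at least 1 FPKM in either library. A same-group difference is the larger of the differences between the 2 KO and the 2 WT libraries. It may be wider than the spread of the treatment set, which has no replicates. The 2 tables were never tested against each other. Symbols were matched to RefSeq (19784 and 19797 loci), of which 17470 and 17490 were protein-coding genes with 1 locus. On simulated data the fit recovered 8 of 50 genes changed 2-fold and 47 of 50 changed 4-fold among 12692 loci, with 6 false calls over all sizes. The simulated noise was independent between libraries, with a spread averaged over genes of like level. Only genes with a mean of at least 8 FPKM were changed, 50 each at 2-, 4-, 16- and 64-fold in the same simulated data. So many large changes ease the adjusted threshold, whereas 15 of 13158 loci passed in the real data. The recovered counts are therefore not the power of the real fit. The simulation also does not give the power for low genes such as RCOR2, for genes of wider spread, or under a deviation shared by same-numbered libraries.

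The members and lists were chosen with earlier results of these data known. The genes named were all members, list genes past the KO against WT threshold or past 2-fold in a treatment comparison, the highest expressed gene of each list, and the 3 genes most like AOF2, RCOR1, RCOR2 and HDAC1 among genes of at least 5 FPKM in both tables. Of 58 list genes 55 were matched. With 2 libraries a group the precision of each test is limited. Tables and plots were made in Python 3.11.15 (matplotlib 3.10.9, numpy 2.4.6, pandas 2.3.3).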

Additional observations from a re-analysis of the deposited data

How the results depend on the processing

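The count of loci called between KO and WT depended on the processing: 15 as reported, 38 with a pseudocount of 0.1 FPKM, 0 with 5 FPKM, 0 with no filter on low values, 7 with a filter at 5 FPKM (which drops RCOR2 and PHF21A) and 59 among protein-coding genes with 1 locus. It was 17 with quantile normalization, 15 with median rescaling, and 0 to 0 when any of the 4 libraries was left out, where the lone library's spread was borrowed from the other genotype. The authors' deposited table calls 60 loci in both replicate pairs and 153 in either. No member was called under any of these settings of limma, and the authors' calls in either pair hold 1, AOF2. The replicate numbers are shared by the groups, and the deviations of KO 1 and WT 1 correlated over loci (r = 0.21), but with 2 pairs and no label saying what a number marks they were not used as a block. With the replicate block 0 loci were called, and 3195 had an unadjusted p under 0.05, against 943 without it. Among the members RCOR2 joined AOF2 at an unadjusted p under 0.05 with the block (limma adjusted p = 0.159).

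The log2 difference of AOF2 kept its sign throughout (-2.05 to -1.62), as did those of RCOR1, RCOR2 and HDAC2. RCOR2 ranged from -1.55 to -0.44 when a library was left out. Leaving out a library turned the sign of RCOR3 (-0.0156 to 0.0540), HDAC1 (-0.0291 to 0.30), PHF21A (-0.35 to 0.55), HMG20B (-0.0645 to 0.52) and ZMYM2 (-0.25 to 0.49), none of which passed the test, and quantile normalization turned RCOR3 to -0.0048. The cause was not tested.

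For the treatments, members past the size threshold changed as follows. With RA 0.01 uM against DMSO 1 member (RCOR2) was past 2-fold at a pseudocount of 0.1 FPKM, and 2 (RCOR2 and HDAC1) were past 1.5-fold, where 18.5% of all loci were. With RA 1 uM the count was 2 at 1.5-fold (21.5% of loci), and 0 at a pseudocount of 5 FPKM, at 4-fold and by the authors' calls. For the combination against DMSO and against MC_2580 it was likewise 0 at 5 FPKM, at 4-fold and by the authors' calls. At 5 FPKM the RCOR2 differences shrank to -0.66 with RA 1 uM and -0.71 with the combination, a consequence of the pseudocount being as large as the gene's level. Read totals were not given, so no counting interval can be attached to RCOR2, the lowest member.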
